A study of Mus musculus with 2 samples.

Results

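Complement genes were followed across the cell types of the mouse thalamus 21 days after cortical damage. The set held 6 of the 32285 gene rows of the count matrices, namely C1qa, C1qb, C1qc, C3, C4b and C6. These genes were chosen because of their measured levels and differences in these same libraries, so their values are given as a description without any test. Each group was 1 library of thalamic nuclei pooled in equal numbers from 4 female C57BL/6J mice aged 3 months. Sham mice had a burr hole without ablation, and injured mice had cortical ablation injury (CAI), in which sensory and motor cortex on one side was removed by aspiration. Thalamus of the operated side was dissected and frozen 21 days later, and nuclei were stained with propidium iodide, sorted and sequenced with droplet 3′ chemistry. With 1 library per group there was no replicate check. Differences between the pools, the dissections and the operations cannot be told apart, and every interval below is a 95% interval that covers counting error only.

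Complement is a cascade of blood and tissue proteins that tags and clears microbes, debris and, in the brain, synapses. C1q, built from the A, B and C chains that C1qa, C1qb and C1qc encode, starts the classical pathway. C4b encodes complement component C4, which the C1 complex cleaves, C3 encodes the central component that all routes cleave, and C6 encodes one of the terminal components that assemble into the membrane attack complex. In brain, microglia are the known main source of C1q, astrocytes and oligodendrocytes can make C4, and reactive astrocytes and microglia are known to make C3.

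The 3 C1q genes lie side by side on the minus strand within 18675 bases of chromosome 4, at chr4:136880129-136898803 of GRCm38. From the low to the high coordinate, C1qb spans 136880129 to 136886187, C1qc spans 136889804 to 136893065 and C1qa spans 136895917 to 136898803. C3 (chr17:57203970-57228136) and C4b (chr17:34728380-34743882) lie on the minus strand of chromosome 17, and C6 (chr15:4727175-4814967) lies on the plus strand of chromosome 15, where it covers 87793 bases. The sequence just upstream of 3 members is shown because C1qb and C1qc are neighbours whose levels were highest in the same class, while C6 had a different, neuronal distribution. RefSeq promoters of GRCm38.p6 were found for 4 of the 6 members, and C1qa and C4b are named only. Capitals mark GAGGAA or its reverse complement TTCCTC, the core letters bound by PU.1, a transcription factor of myeloid cells. The shown stretches, written 5′ to 3′ on the gene's own strand, are chr4:136886201-136886450 (minus) for C1qb, chr4:136893066-136893164 (minus) for C1qc and chr15:4726960-4727174 (plus) for C6.
C1qb: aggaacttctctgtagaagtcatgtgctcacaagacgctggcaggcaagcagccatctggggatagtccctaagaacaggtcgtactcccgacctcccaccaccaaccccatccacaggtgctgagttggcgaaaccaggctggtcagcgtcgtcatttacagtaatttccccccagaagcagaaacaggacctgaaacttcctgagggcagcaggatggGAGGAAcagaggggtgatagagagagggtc
C1qc: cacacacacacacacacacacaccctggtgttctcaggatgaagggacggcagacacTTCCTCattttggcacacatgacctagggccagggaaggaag
C6: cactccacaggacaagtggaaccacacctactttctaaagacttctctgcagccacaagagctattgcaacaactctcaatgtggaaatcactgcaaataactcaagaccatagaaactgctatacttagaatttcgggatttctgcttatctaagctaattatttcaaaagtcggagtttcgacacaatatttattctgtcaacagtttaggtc
GAGGAA was searched on both strands of the 300-base windows around the gene starts, and 2 of the 4 windows, those of C1qb and C1qc, held it. The same letters occurred in 28.3% of all 32851 windows. ATCAAAG, letters bound by TCF and LEF factors such as the relay neuron markers Tcf7l2 and Lef1, was in none of the 4 windows, C6 included, and in 3.73% of all windows. A match or its lack describes these letters in these windows and nothing more.

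The sham library held 16390 barcodes and 137850696 unique molecular identifiers (UMIs, one per captured transcript), and the injury library held 21828 barcodes and 180106314 UMIs. After removal of nuclei with high mitochondrial share or extreme gene numbers, 16373 sham and 21777 injury nuclei were kept, with medians of 7190 and 6810 UMIs, and 101 barcodes occurred in both libraries. Nuclei fell into 37 clusters, which were grouped into classes by marker genes. Class names mean that a cluster resembles the type by these markers. The injury library held more glia and nuclei that the sham library lacked, with 498 cortex-like nuclei against 0 and an oligodendrocyte cluster of 941 nuclei against 28. The cortex-like nuclei were clusters N23 (282 nuclei) and N26 (216 nuclei), each with 1 cortex marker among its leading genes. No marker list was made for hippocampal neurons, so they could include such neurons. What part the makeup of the dissected tissue had in the results below was not tested.

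Each member had its own distribution over the classes. A level is given as CPM, the UMIs of a gene relative to all UMIs of its class, on the usual scale for sequencing depth. C1qa, C1qb and C1qc were highest in microglia, C4b in astrocytes and oligodendrocytes, and C6 in thalamic relay-like neurons, while C3 had few UMIs or none in each class. In microglia 3 of the 6 members were at 0 in the sham library and 2 in the injury library, and in oligodendrocyte precursors 6 and 1 were. All 6 members had UMIs in relay-like neurons of both libraries. Classes of few nuclei are read against the level of 3 UMIs, taken as the most that a count of 0 allows. That level was 93.6 CPM in the 27 sham microglia but 0.0572 CPM in the 4760 sham relay-like neurons.

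**Figure D1:**
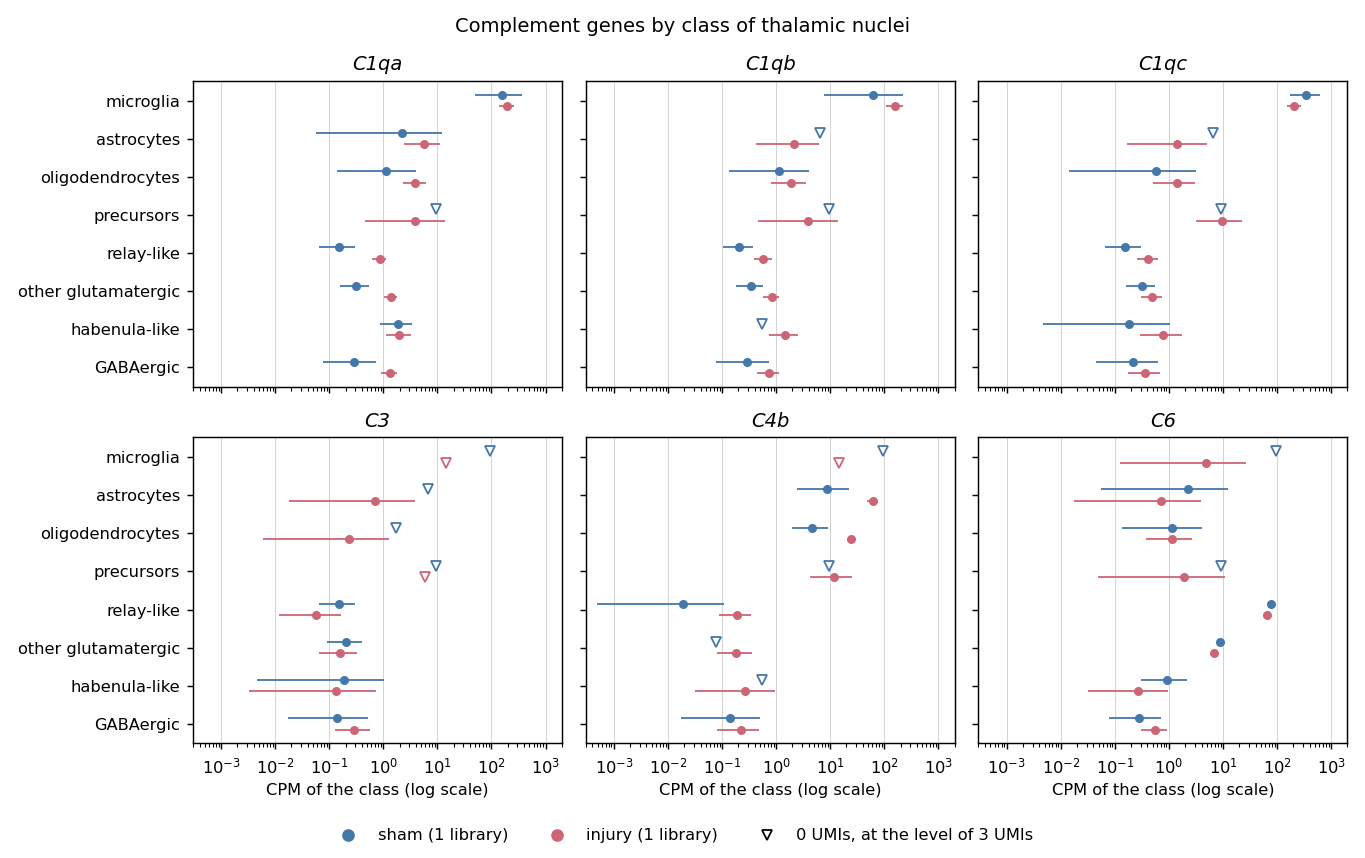
CPM of each complement gene (log scale) in 8 classes of nuclei, with 95% Poisson intervals, for the sham and injury libraries (1 each). Open triangles stand at the level of 3 UMIs where a class had 0 UMIs, and the highest filled points lie in microglia for the C1q genes, in astrocytes for C4b and in relay-like neurons for C6.

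The class with the highest level was not always the class that held most of the transcripts. Microglia held 13.6% (8.29 to 20.7) of the C1q UMIs of the sham library and 20.2% (17.0 to 23.7) of those of the injury library, while neurons held 69.7% and 60.7%. Neurons were 13855 and 16530 of the kept nuclei, and microglia 27 and 154. Over all genes, neurons held 121826909 of 137411540 sham UMIs and 147802257 of 178972911 injury UMIs. Their share of C1q UMIs was thus below their share of all UMIs in both libraries. For C4b, astrocytes held 22.2% and oligodendrocytes 44.4% of 18 sham UMIs, against 32.0% and 39.3% of 272 injury UMIs. C6 was the most concentrated of the members, with 81.4% of 4877 sham UMIs and 73.9% of 4709 injury UMIs in relay-like neurons. Clusters with mixed markers held a further 9.51% and 16.7% of the C6 UMIs.

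**Figure D2:**
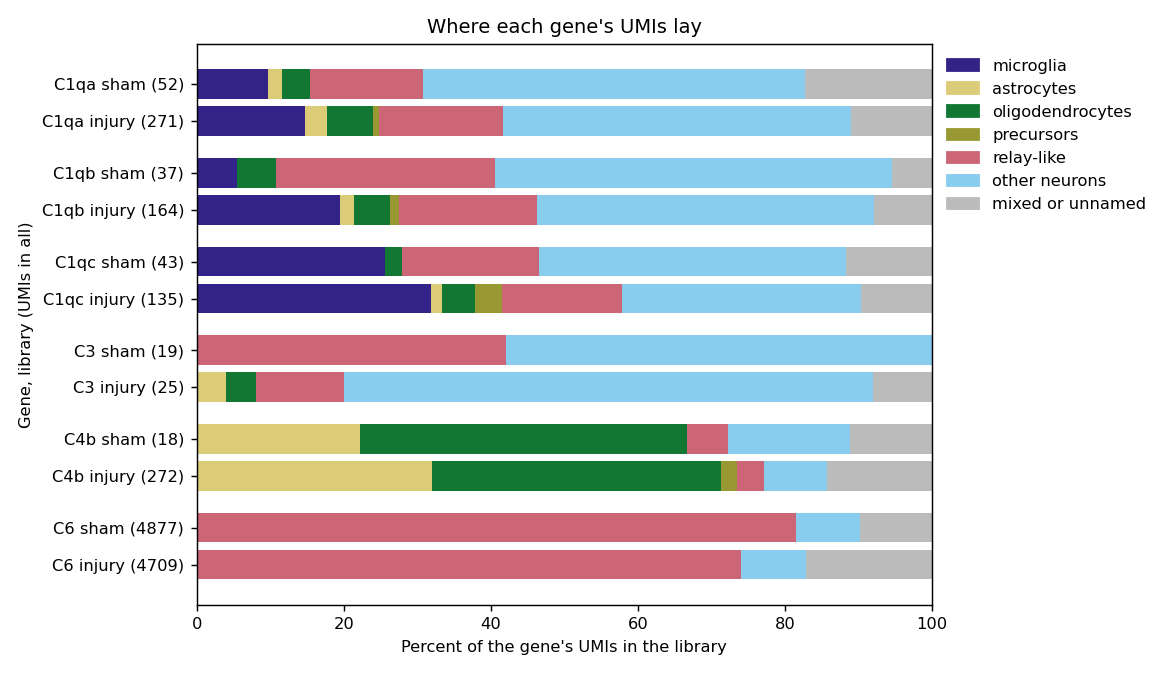
Percent of each gene's UMIs that lay in each class, 1 bar per library, with the gene's UMIs in the library in brackets. The largest microglial segment is 31.9%, for C1qc in the injury library, and C6 lies mostly in relay-like neurons.

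C1q transcripts per unit of microglial RNA were at like levels in both libraries. The 3 chains summed to 18 UMIs in 27 sham microglia, or 562 CPM (333 to 888), and to 115 UMIs in 154 injury microglia, or 556 CPM (459 to 667). Their log2 ratio of injury over sham was -0.01 (-0.74 to 0.79), an interval that covers both a lower and a higher level, and scaling by TMM factors moved it to 0.37. That scaling shifted all microglial ratios by 0.39 on the log2 scale and changed the sign of the summed ratio. Microglial nuclei themselves were 0.165% of the kept sham nuclei and 0.707% of the kept injury nuclei.

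Single chains had wider intervals in microglia. C1qa had 5 UMIs in the sham library and 40 in the injury library, which gave 156 and 193 CPM and a log2 ratio of 0.31 (-1.03 to 2.01). C1qb had 2 and 32 UMIs, with levels of 62.4 and 155 CPM and a log2 ratio of 1.31 (-0.66 to 4.42). C1qc had 11 and 43 UMIs, 343 and 208 CPM, and a log2 ratio of -0.72 (-1.70 to 0.38). The chains thus differed in sign, and each interval included 0. Among the 3 members with at least 20 UMIs in microglia over both libraries, 1 (C1qb) passed a log2 ratio of 1 upward and 0 passed it downward, against 14.8% and 8.21% of the 2812 genes counted in the same way. This share over all genes shows how often a ratio of that size arose in so few nuclei.

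A C1q UMI was found in 14 of 27 sham microglia (51.9%) and in 75 of 154 injury microglia (48.7%), whose median depths were 1146 and 1129 UMIs. After thinning each nucleus to 1000 UMIs, which left 18 and 94 nuclei, the shares were 39.95% and 39.7%. In neurons, where C1q is usually low, the shares were 0.650% and 1.95% at median depths of 7631 and 7577 UMIs, and 0.0980% and 0.285% after thinning. The unthinned and thinned shares kept the same order between classes, with microglia far above neurons in both libraries. Nuclei with UMIs of at least 2 different chains numbered 3 and 13 among microglia.

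The identity of the microglial cluster was checked on genes outside the complement set. All 10 microglial markers, which include the receptors Cx3cr1 and P2ry12, had UMIs in both libraries, with summed levels of 11799 and 9037 CPM. Of the 5 markers of border macrophages, which are known to carry C1q as well, Cd163, Lyve1 and Ms4a7 were at 0 in both libraries, while Mrc1 and F13a1 had UMIs in the sham library. The list summed to 15 UMIs (468 CPM) in the sham and 1 UMI (4.84 CPM) in the injury library, so the sham nuclei held more of this RNA, near their C1q level of 562 CPM, and its part in the C1q ratio was not tested. Neuron markers summed to 1998 and 3539 CPM in the same nuclei and oligodendrocyte markers to 281 and 972 CPM. The part of such RNA from other cells in the microglial values was not tested.

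Outside microglia the C1q level was low but higher in the injury library. Summed over all other nuclei, C1q had 114 UMIs in the sham library and 455 in the injury library, at 0.830 and 2.55 CPM, for a log2 ratio of 1.62 (1.32 to 1.93). Each named class of thalamic neurons had a ratio above 0. Other glutamatergic neurons had 37 and 117 UMIs and a log2 ratio of 1.48 (0.93 to 2.05). Relay-like neurons had 27 and 99 UMIs with a log2 ratio of 1.84 (1.22 to 2.51). GABAergic neurons had 11 and 66 UMIs, at a ratio of 1.63 (0.70 to 2.70). Habenula-like neurons had 11 and 32 UMIs, at a ratio of 1.05 (0.03 to 2.19). Oligodendrocytes, with 5 and 31 UMIs, had a log2 ratio of 1.34 (-0.04 to 3.06), which included 0, and precursors had 0 and 9 UMIs, the latter in 4 nuclei. Astrocytes had 1 and 13 UMIs and a ratio of 2.04 (-0.69 to 7.45), which also included 0. All of these levels were far below those of microglia. With free RNA subtracted, estimated from markers of other classes in each library, the log2 ratio of C1q in neurons was 1.63 (1.26 to 2.03). The subtraction took a part of each library's own mean C1q level. That mean had a log2 ratio of 1.73 (1.45 to 2.01) over all nuclei, so the subtraction could hardly move the neuronal ratio. Nothing is read from its stability.

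By chain, the relay-like neurons showed the same direction for each gene. C1qa went from 8 to 46 UMIs, a log2 ratio of 2.49 (1.39 to 3.79), C1qb from 11 to 31, a ratio of 1.46 (0.43 to 2.60), and C1qc from 8 to 22, a ratio of 1.43 (0.21 to 2.80). Of the 4 members with at least 20 UMIs there, 3 passed a log2 ratio of 1 upward and 0 downward, against 1.4% and 0.981% of 18854 genes. The injury contrast was used to choose the members, so nothing is read from this count. Other neuron classes were less uniform by chain. In other glutamatergic neurons C1qa and C1qb had intervals above 0, while C1qc, at 0.62 (-0.47 to 1.78), included it. In GABAergic neurons C1qa had an interval above 0, and C1qb and C1qc included 0. In habenula-like neurons C1qa had a ratio of 0.10 (-1.15 to 1.41), C1qb had 0 and 11 UMIs and C1qc 1 and 6.

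Several other microglial transcripts were also higher in neurons of the injury library. Inpp5d, a lipid phosphatase of immune cells, had 61 sham and 184 injury UMIs in neurons and a log2 ratio of 1.31 (0.89 to 1.76). Apbb1ip had a ratio of 0.86 (0.53 to 1.19) and Siglech 0.80 (0.20 to 1.42). Ptprc, the leukocyte antigen CD45, had 0.75 (0.32 to 1.21) and Csf1r, the receptor for colony stimulating factor 1, had 0.60 (0.20 to 1.01). The summed C1q ratio in neurons was 1.63 (1.30 to 1.98), with 2.03 (1.504 to 2.60) for C1qa, 1.49 (0.91 to 2.12) for C1qb and 1.07 (0.39 to 1.78) for C1qc. The intervals of Apbb1ip, Ptprc and Csf1r lay below that of the summed C1q, and those of Inpp5d and Siglech overlapped it. Of these 5 markers, only Inpp5d had an interval that overlapped that of C1qa, while all 5 overlapped that of C1qc. Selplg had 0.42 (0.12 to 0.73). Cx3cr1, at 0.08 (-0.03 to 0.19), and Tmem119, at -0.06 (-1.85 to 1.79) with 6 and 7 UMIs, had intervals that included 0. The 10 markers summed to a log2 ratio of 0.14 (0.11 to 0.17), a sum in which P2ry12, with 9582 of 14375 sham UMIs and a ratio of 0.08, weighed most. In microglia the same list had a ratio of -0.38 (-0.54 to -0.22). The part of these transcripts in the C1q result was not tested.

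The mix of chains also differed between microglia and neurons over both libraries together. Over both libraries C1qa made up 33.8% (25.9 to 42.5) of the C1q UMIs in microglia and 47.7% (43.0 to 52.5) in neurons, and C1qc made up 40.6% (32.2 to 49.5) and 21.0% (17.3 to 25.1). Neither pair of intervals overlapped, though for C1qa they ended at 42.5 and began at 43.0. The intervals take UMIs as independent, but microglial UMIs were bunched, with up to 10 C1q UMIs in a nucleus. They may therefore be too narrow. In the injury library alone C1qa made up 34.8% in microglia and 50.3% in neurons, and C1qc 37.4% and 19.1%. In the sham library, with 18 UMIs in microglia, the intervals overlapped, at 27.8% (9.69 to 53.5) against 38.0% (28.1 to 48.8) for C1qa and 61.1% (35.7 to 82.7) against 28.3% (19.4 to 38.6) for C1qc. The proportions are of UMIs without correction for the length of each gene. UMIs in nuclei that held at least 2 C1q UMIs were 38.9% and 53.0% of the microglial total and 4.35% and 11.8% of the neuronal total, shares that also follow from how few UMIs fell on each neuron.

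**Figure D3:**
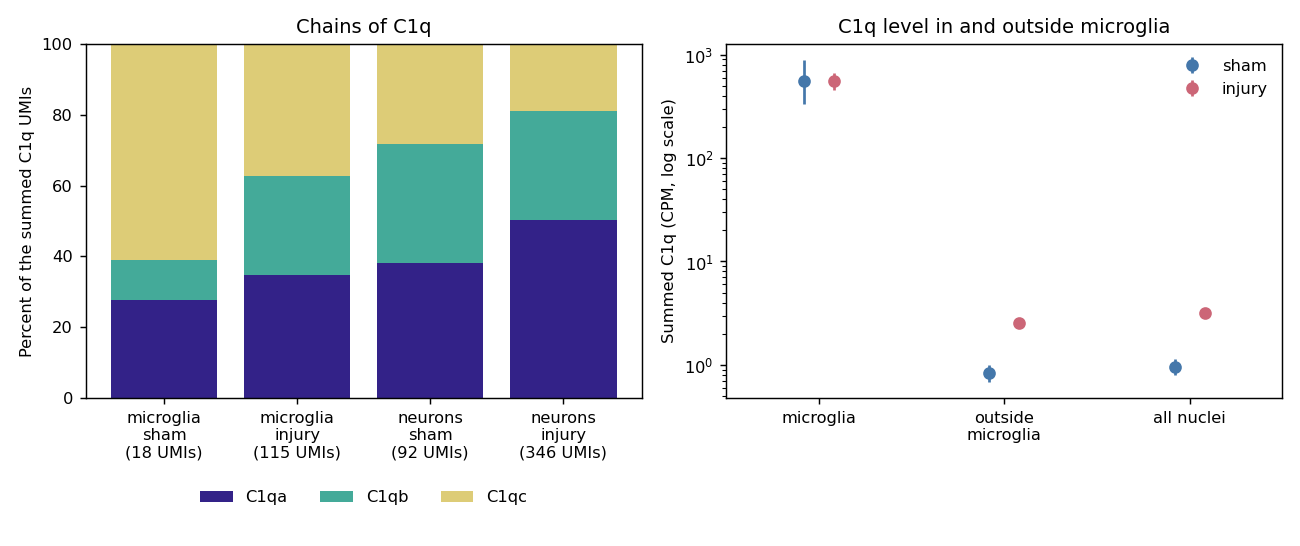
Left, percent of the summed C1q UMIs that came from each chain in microglia and neurons of the sham and injury libraries. Right, summed C1q level (CPM, log scale, 95% Poisson intervals) in microglia, in all nuclei outside microglia and in all nuclei, where the libraries overlap in microglia and stand apart elsewhere.

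C3 was nearly undetected. The whole sham library held 19 C3 UMIs and the whole injury library 25, which gave 0.138 and 0.140 CPM and a log2 ratio of 0.01 (-0.90 to 0.96). Microglia and precursors had 0 UMIs in both libraries, which allows up to 93.6 CPM in sham and 14.5 CPM in injury microglia. Astrocytes had 0 and 1 and oligodendrocytes 0 and 1. Neurons held 19 and 21 of the UMIs, at a log2 ratio of -0.13 (-1.10 to 0.84). Without called doublets that ratio was -0.82 (-2.01 to 0.31), which also included 0. Over all genes, neurons held 121826909 of 137411540 sham UMIs and 147802257 of 178972911 injury UMIs. Most C3 UMIs would thus lie in neurons without any enrichment there, and none is read from these counts. In injury astrocytes 3 UMIs would be 2.10 CPM and in injury oligodendrocytes 0.692 CPM, far below the C4b levels of the same nuclei given next. In microglia and precursors, with fewer nuclei, the depth set a higher limit.

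C4b was the member with the largest difference between libraries over all nuclei. It had 18 UMIs in the sham library (0.131 CPM) and 272 in the injury library (1.52 CPM), a log2 ratio of 3.54 (2.85 to 4.31). Within astrocytes, C4b had 4 UMIs in 209 sham nuclei, or 8.81 CPM (2.40 to 22.6), and 87 UMIs in 509 injury nuclei, or 60.8 CPM (48.7 to 75.0). The log2 ratio was 2.79 (1.38 to 4.69). With free RNA subtracted the injury level was 117 CPM (93.4 to 144) and the ratio 2.54 (1.12 to 4.44). Nuclei with a C4b UMI were 1.91% of sham and 10.6% of injury astrocytes, and 0.970% and 4.47% after thinning, at median depths of 1892 and 2549 UMIs. For comparison, the shares in neurons were 0.0289% and 0.200% at median depths of 7631 and 7577 UMIs.

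The astrocyte value rested on a cluster found in the injury library alone. Cluster G7, led by A2m, a protease inhibitor, and Gfap, an intermediate filament of reactive astrocytes, had 93 injury and 0 sham nuclei and held 68 of the 87 UMIs, at 194 CPM (151 to 246) and with a C4b UMI in 41.9% of its nuclei. In the other astrocyte cluster, G3, C4b had 4 sham and 19 injury UMIs, 8.81 and 17.6 CPM, and a log2 ratio of 0.996 (-0.59 to 3.01), which included 0. The same value, 0.996, was obtained when clusters with under 30 nuclei in a library were left out. Among astrocytes 1 of 1 member with at least 20 UMIs (C4b) passed a log2 ratio of 1 upward and 0 downward, where 5.69% and 2.85% of 9380 genes did. Nothing is read from this count, because members were chosen with the injury contrast known.

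Oligodendrocytes had the same direction in clusters shared by both libraries. C4b had 8 UMIs in 1005 sham nuclei, 4.52 CPM, and 107 UMIs in 2320 injury nuclei, 24.7 CPM, a log2 ratio of 2.45 (1.42 to 3.70). In cluster G0 the UMIs were 4 and 43, at 4.51 and 38.6 CPM and a ratio of 3.09. In cluster G1 they were 4 and 45, at 6.45 and 29.2 CPM and a ratio of 2.18. Cluster G2, with 28 sham nuclei against 941, had 0 and 12 UMIs, the latter at 10.2 CPM, and cluster G5 had 0 and 7. G0 and G1 held most of the sham oligodendrocytes, but each of their ratios rests on 4 sham UMIs. The part of cluster makeup in the C4b ratio of the class was not tested. Nuclei with a C4b UMI were 0.697% of sham and 3.19% of injury oligodendrocytes, and 0.463% and 2.03% after thinning, at median depths of 1552 and 1654.5 UMIs. In this class 1 of 1 member with at least 20 UMIs (C4b) passed a log2 ratio of 1 upward and 0 downward, against 2.52% and 1.78% of 12040 genes. As in astrocytes, nothing is read from the count, because of how members were chosen.

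**Figure D4:**
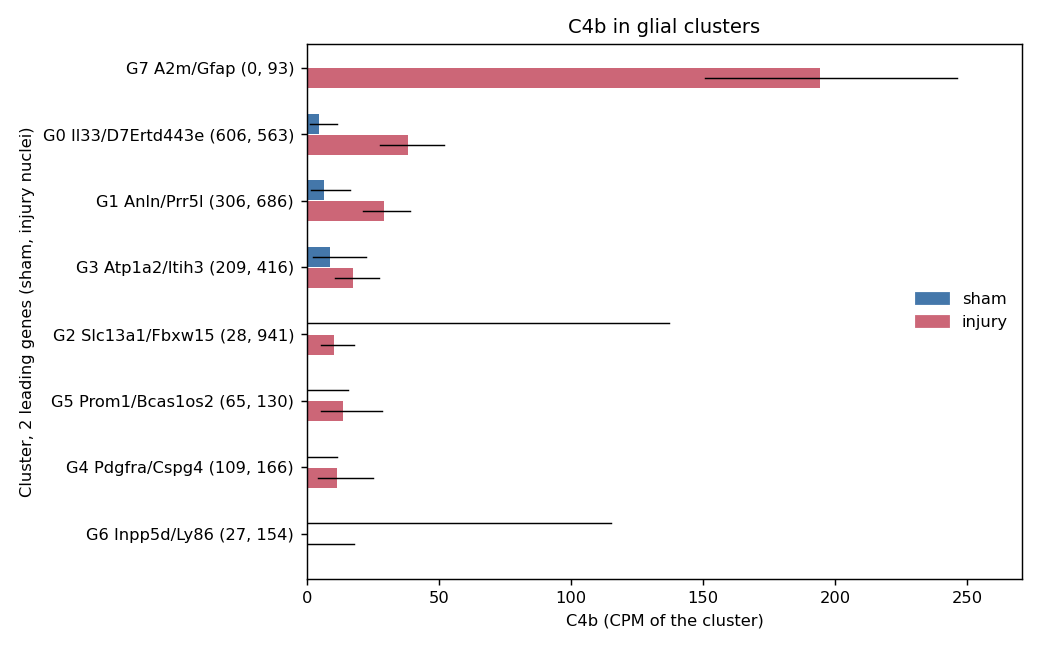
CPM of C4b in each glial cluster of the sham and injury libraries with 95% Poisson intervals, clusters named by their number and leading genes, with sham and injury nuclei in brackets. Cluster G7 had 0 sham nuclei and so no sham bar, and clusters G0 and G1 were higher in injury with nuclei in both libraries.

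C4b had 0 UMIs in microglia of both libraries, which allows up to 93.6 and 14.5 CPM, and 0 and 6 in precursors, the latter at 11.6 CPM. No member reached 20 UMIs in precursors, where 3.67% of 6329 genes passed a log2 ratio of 1 upward and 2.53% downward. In neurons C4b had 4 and 33 UMIs, at 0.0328 and 0.223 CPM. The gene has a near-identical neighbour, C4a, and 18.9% of the 90-base windows of a C4b transcript, and 20.2% of those in its last 500 bases, also occur in C4a transcripts, so reads of the pair could be exchanged by counting and the C4b values are uncertain to that extent. Among classes with at least 20 of its UMIs, C4a was highest in other glutamatergic neurons, at 0.936 and 1.08 CPM.

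C6 had the most UMIs of the members, and its difference between libraries was small. Relay-like neurons had 3969 UMIs in the sham library, or 75.7 CPM (73.4 to 78.1), and 3478 in the injury library, or 64.9 CPM (62.7 to 67.1), a log2 ratio of -0.22 (-0.29 to -0.16). Other glutamatergic neurons had 8.66 and 6.94 CPM and a ratio of -0.32 (-0.55 to -0.09). GABAergic neurons had 4 and 15 UMIs at 0.284 and 0.549 CPM, a ratio of 0.95 (-0.70 to 3.00). C6 UMIs were few in glia, at 0 and 1 in microglia, 1 and 1 in astrocytes and 2 and 5 in oligodendrocytes. Their levels were 2.20 and 0.699 CPM in astrocytes and 1.13 and 1.15 CPM in oligodendrocytes, above those of GABAergic neurons. Injury microglia had 4.84 CPM. The 0 UMIs of sham microglia allow up to 93.6 CPM, above the relay-like level, so absence there is not shown. Cluster N17, which was given no class name and was led by Atp13a5 and Abcc9, genes known from mural cells, had 13 and 24 C6 UMIs in 263 and 352 nuclei, at 54.8 CPM (29.2 to 93.7) and 49.6 CPM (31.8 to 73.8). It was left unnamed for its low depth, a median of 981 UMIs. The glutamatergic neuron markers Slc17a6 and Slc17a7 summed to 136 CPM there, against 218 and 199 CPM in the relay-like clusters N2 and N3. The source of the C6 UMIs in N17 was not tested. Over all nuclei the ratio was -0.43 (-0.49 to -0.37), farther from 0 than within relay-like neurons, and relay-like neurons were 29.1% of sham and 21.4% of injury nuclei.

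Relay-like neurons did not share C6 evenly. Cluster N3, led by Zfp385c and Adgrf5, had 111 CPM in the sham and 87.4 CPM in the injury library, a log2 ratio of -0.35 (-0.46 to -0.24). Cluster N2, led by Snx31 and Pth2r, had 106 and 89.3 CPM and a ratio of -0.25. Cluster N10, led by Ppp1r3a and Adamts9, had 67.4 and 56.1 CPM and a ratio of -0.27. The intervals of N3 and N2 overlapped in each library, and both lay above N10. Beyond the relay-like class, cluster N6, led by Nox4 and Kcp, had 40.4 and 35.7 CPM and a ratio of -0.18 (-0.41 to 0.06). Clusters N13 and N22, which were relay-like by the same markers, had 5.05 and 3.43 CPM in the sham library, and cluster N15 had 0 in both. With finer clusters the highest cluster had 200.2 and 173 CPM and a ratio of -0.21, and the ratio was -0.18 without integration of the libraries.

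**Figure D5:**
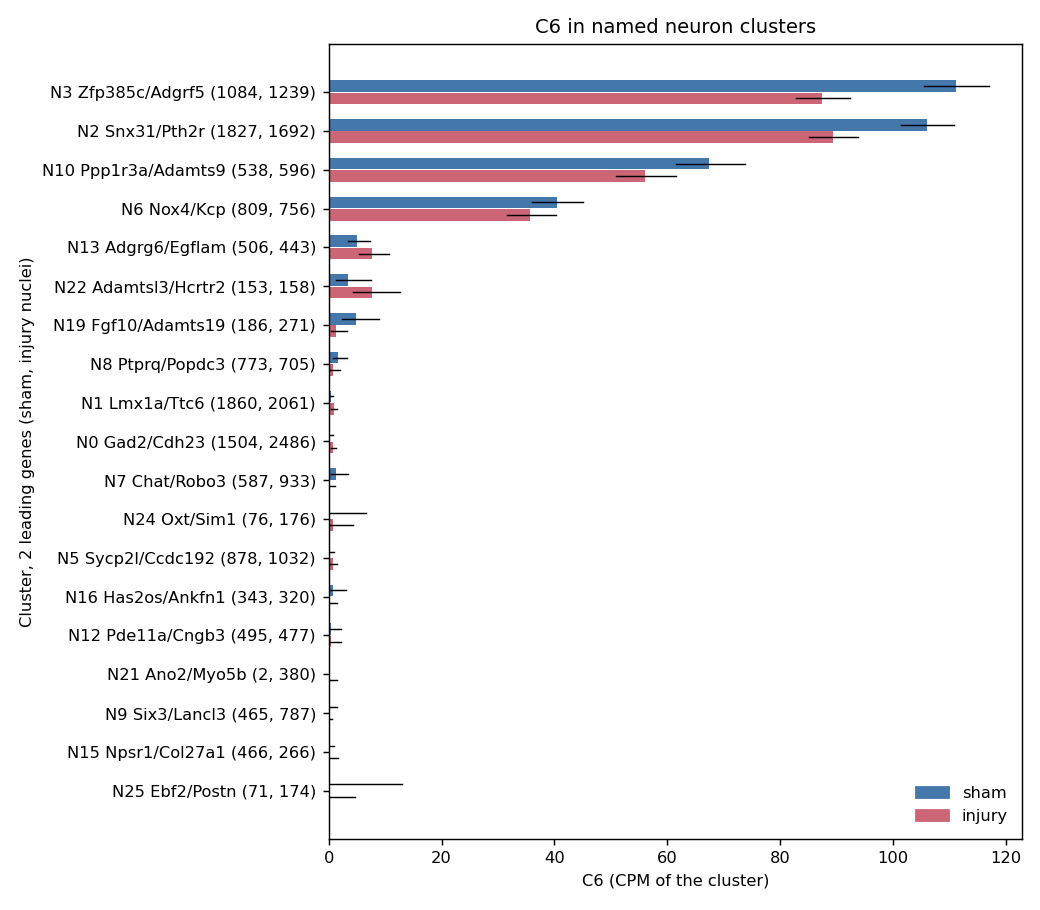
CPM of C6 in neuron clusters of the sham and injury libraries with 95% Poisson intervals, clusters named by number and leading genes, with sham and injury nuclei in brackets. Clusters N3, N2, N10 and N6 stand above all others shown, and a library with under 20 nuclei in a cluster has no bar.

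C6 UMIs were bunched in a minority of nuclei. A C6 UMI was seen in 27.9% of sham and 21.8% of injury N3 nuclei, and 143 sham nuclei (119 injury) with at least 5 UMIs held 76.7% (75.7%) of the cluster's C6 UMIs. The highest nucleus of the 4 leading clusters held 29 UMIs. The ratio of variance to mean was 5.42 to 8.14 in these clusters and libraries, above the value of 1 that Poisson counts would have, so the intervals for C6 are too narrow. In the whole class the share of nuclei with a UMI was 18.1% in sham and 16.4% in injury, and 5.75% and 4.998% after thinning, at median depths of 9886 and 10060 UMIs. The matching share in oligodendrocytes was 0.199% and 0.172% at median depths of 1552 and 1654.5 UMIs. Of 12 clusters with at least 20 C6 UMIs in both libraries together, 4 had an interval below 0, 1 (a cluster outside the named classes) had an interval above 0 and 7 crossed it.

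The genes closest to each member over the 37 clusters are given as a description. Points are clusters with both libraries summed, 3 of which (G7, N23 and N26) had 0 sham nuclei, and a correlation among them says nothing of a shared function. For C1qa, the highest Pearson correlation of log2(CPM + 1) was with Slco2b1 (0.93), an organic anion transporter. For C1qb and C1qc, Irf8, a myeloid transcription factor, had 0.92 and 0.93. For C4b the highest were C730002L08Rik and Gm41492 (0.93 each) and Hif3a (0.92), a hypoxia-inducible factor. For C6 they were Loxhd1 (0.87), Gtf2a1l (0.85) and Gckr (0.83). C3 had 44 UMIs in all and its closest gene, Gm16175, only 0.79.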

How the data were processed

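Nuclei of sham and injured thalamus were sequenced with 10x 3′ chemistry, and the authors deposited raw UMI counts per gene and barcode for each library. Per the submitters' processing notes, bcl2fastq, Cell Ranger 6.0.2 and Seurat 4.0 were used with build mm10 (GRCm38). The annotation release, and whether intron reads and strand were used, are not given in the sources used here, and overlapping genes could exchange reads. Each sample took its group from its treatment label.

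From the counts as deposited, nuclei with over 2% mitochondrial UMIs or outside 200 to 7500 genes were removed, leaving 16373 sham and 21777 injury nuclei. Scrublet (through scanpy 1.11.5) called 2193 and 3806 doublets at a rate of 0.8% per 1000 nuclei. They were kept, and clusters with over 50% of them were set apart. Libraries were joined with Seurat 5.3.0 anchors on 1990 variable genes (2000 less 10 complement genes), 30 components and Louvain resolution 0.5, with neuronal and other nuclei clustered again separately. Classes were named by marker lists. Neurons means all neuronal classes together with 2 further clusters, N4 and N20, whose leading genes held more markers of other types than of their own. Cluster N17 was not included. UMIs were summed per class and library. CPM has exact Poisson intervals, shares exact Clopper-Pearson intervals, and ratios the exact interval of 2 Poisson sums. A count of 0 was read as up to 3 UMIs. Ratios were counted for genes with at least 20 UMIs in the class. The ratio script was tested on simulated data. Shares were also thinned to 1000 UMIs per nucleus. Gene names came from GENCODE M21 for 32235 of 32285 rows. Sequences came from RefSeq GRCm38.p6.

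Members, lists, markers and thresholds were chosen with earlier results of these data known. Named genes are the 6 members, pathway genes past a log2 ratio of 1 (at most 5 per direction and class), the 3 genes most correlated with each member and markers used as checks, and some of these are not reported here. No test was run, since each group is 1 pool. Alternatives were scaling, doublets, resolution, integration, free RNA, the UMI minimum, thinning depth and clusters with few nuclei.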

Additional observations from a re-analysis of the deposited data

How the results depend on the processing

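No paired analysis was possible because neither group had more than 1 library. Of the log2 ratios recomputed under alternatives, none whose interval excluded 0 changed sign. Of the recomputed ratios 78 stayed within their interval and 3 moved outside it. Of the levels 25 stayed and 15 moved, and of the shares 27 stayed and 11 moved. Microglia were the same 27 and 154 nuclei at resolution 1.0 and without integration, so their ratios could not move there. The ratios of single C1q chains outside microglia, and those of Clu, Sez6l and Cfi, were not recomputed. Across alternatives the log2 ratio of C1q ranged from -0.06 to 0.37 in microglia and from 1.46 to 1.67 in neurons, that of C4b in oligodendrocytes from 2.43 to 2.71, and that of C6 in relay-like neurons from -0.25 to -0.19. The ratios of C3 in neurons and C6 in GABAergic neurons, whose intervals included 0, ranged from -0.82 to -0.05 and from 0.29 to 1.48. The ratio of C6 in its highest cluster was -0.21 at resolution 1.0 and -0.18 without integration. With clusters of under 30 nuclei in a library left out, an alternative added after seeing the data, the C4b ratio in astrocytes was 0.996 and 0 complement genes were higher there, since the injury-only cluster is dropped. Without called doublets the injury share of C1q UMIs in microglia was 24.7%, that of C4b UMIs in oligodendrocytes 49.1%, and the share of C6 UMIs in relay-like neurons 90.5% (sham) and 89.7% (injury). With free RNA subtracted the latter were 76.4% and 71.0%. Pathway counts in microglia were 3 higher and 1 lower with TMM factors, 0 and 1 with a minimum of 50 UMIs, and 4 lower with a minimum of 1 UMI. Relay-like neurons had 1 higher and 0 lower with a minimum of 50 UMIs, and 7 and 3 with 1 UMI. With 1 UMI, astrocytes had 3 and 3, oligodendrocytes 4 and 2, and precursors 2 lower. These counts move with the minimum by construction, since it changes which genes are read. Depth limits microglia most, with 27 sham nuclei, and C3, with 44 UMIs in all.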

Other observations

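The other genes of the complement pathway were read from a list of 65, of which 64 had a row and 46 reached 20 UMIs in at least 1 class. In microglia, 10 had at least 20 UMIs, 1 (C1qb) was higher and 2 were lower by a log2 ratio of 1, and their median was -0.23 against 0.04 over all genes, of which 14.8% were higher and 8.21% lower by as much. Among the lower ones, Cr1l, a membrane regulator, had 5 and 15 UMIs and a ratio of -1.11 (-2.64 to 0.71), which included 0. In astrocytes, 16 genes had enough UMIs, with 1 (C4b) higher and 1 lower, and a median of 0.01 against -0.01, where 5.69% of all genes were higher and 2.85% lower. The lower one, Sez6l, of a family of complement inhibitors on neurons, had 132 and 48.9 CPM and a ratio of -1.43 (-1.95 to -0.91). Neuron markers in the same nuclei summed to 11968 and 10024 CPM, and their part was not tested. In relay-like neurons the same gene had 250 and 346 CPM, a ratio of 0.47 (0.44 to 0.50), and the difference between these classes was not tested.

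In oligodendrocytes, 19 genes had enough UMIs, with 2 higher, 0 lower and a median of 0.17 against -0.03, where 2.52% of all genes were higher and 1.78% lower. Besides C4b, the higher one was Clu, which encodes clusterin, an inhibitor of the terminal complex, with 14 and 78 UMIs, 7.92 and 18.0 CPM and a ratio of 1.19 (0.35 to 2.12). In precursors, 10 genes had enough UMIs and 0 passed in either direction, where 3.67% of all genes were higher and 2.53% lower. In relay-like neurons, 37 had enough, with 3 (the C1q genes) higher and 1 lower, and a median of 0.05 against -0.03, where 1.4% of all genes were higher and 0.981% lower. The lower one, Cfi, which encodes the protease factor I, had 30 and 10 UMIs, 0.572 and 0.187 CPM and a ratio of -1.62 (-2.81 to -0.55). In GABAergic neurons Cfi had 6 and 28 UMIs and a ratio of 1.27 (-0.03 to 2.83), and the difference between these classes was not tested. Of the 7 terminal genes, 3, C6 included, had 20 UMIs in relay-like neurons, where 0 passed a log2 ratio of 1. In GABAergic neurons the terminal gene C8b had 3 and 17 UMIs and a ratio of 1.55 (-0.24 to 3.96), which included 0. Itgax, a subunit of complement receptor 4, named after its values were seen, had 0 sham and 21 injury UMIs in microglia, the latter at 102 CPM, where 3 UMIs in the sham nuclei would be 93.6 CPM.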
